A study of Mus musculus with 32 samples.

Results

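The mitosis, spindle and kinetochore genes described here are 58 genes whose products condense, align and separate chromosomes and then cut the cell in 2. They were chosen by name, as a list of mouse gene symbols, with earlier results of these data known. Every one of the 58 was found, each as 1 row, among the 53700 genes of the deposited count table. The kidneys came from male C57BL/6 mice of 1 line (iKspCre-Pkd1del), in which a tamoxifen-activated Cre under the Ksp-cadherin promoter, active in tubule cells, removes several exons of Pkd1, the polycystin-1 gene. All groups carried these alleles. The 12 PKD mice received tamoxifen (150 mg/kg by gavage on postnatal days 18 and 19) and were 95 days old per the labels. The 12 PKD + Salsalate mice were treated alike and in addition ate chow with 2.5 g/kg salsalate, a salicylate prodrug, for 2 weeks from day 81. The study picked the mice of both PKD groups from a larger number for a similarly mild disease, judged by kidney weight over body weight. The 8 wildtype mice were mice without tamoxifen and were 109 days old per their age label, although the protocol given with the samples ends the experiment at day 95 for all mice, so that their age is in doubt. Pkd1 deletion, tamoxifen and any difference in age cannot be told apart in any comparison with wildtype. Poly(A) RNA of each kidney was sequenced, and the p-values measure the spread between these kidneys.

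Mitosis is switched on by the kinase Cdk1 with its B-type cyclins. The chromosomes are then packed by condensins, captured at their kinetochores by spindle microtubules, held in check until all are attached, and parted once the anaphase-promoting complex (APC/C) destroys cyclin B and the cohesin guard. Most of these genes are transcribed mainly in the late cell cycle, so that in a largely resting organ such as the adult kidney their RNA marks the few cells that divide. Tubule cells re-enter the cycle after injury and in polycystic kidney disease, where the cyst wall grows by division. In bulk tissue, more dividing cells and more RNA per dividing cell cannot be told apart.

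The promoters of mitosis genes are known for a short element at the start site, the cell cycle genes homology region (CHR), often downstream of CCAAT boxes. RefSeq promoter windows (GRCm38.p6, 250 bases before to 50 after the start) were found for 48 of the 58 genes, in 51 windows. The letters TTTGAA or TTCGAA, the usual forms of the CHR, stood on either strand in 80.4% of these 51 windows and in 19.2% of all 32851 windows of the table. CCAAT, on either strand, stood in 70.6% of them against 37.4% of all windows, and both motifs together in 66.7% against 7.52%. A match is a description of the letters and not a mapped binding site. The 100 bases before the start of 5 members are shown, with the 2 motifs on either strand in capitals (CCAAT on the other strand reads ATTGG, and a reversed TTTGAA reads TTCAAA): Cdk1, Cdc20 and Top2a, which were higher in PKD and lower after salsalate, and Kif11 and Mybl2, which were not.
Cdk1 (chr10:69352913-69353012, minus strand): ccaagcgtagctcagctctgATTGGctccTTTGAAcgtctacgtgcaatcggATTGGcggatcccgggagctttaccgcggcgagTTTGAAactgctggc
Cdc20 (chr4:118437344-118437443, minus strand): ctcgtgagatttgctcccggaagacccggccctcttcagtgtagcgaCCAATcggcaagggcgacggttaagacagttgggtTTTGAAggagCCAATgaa
Top2a (chr11:99024190-99024289, minus strand): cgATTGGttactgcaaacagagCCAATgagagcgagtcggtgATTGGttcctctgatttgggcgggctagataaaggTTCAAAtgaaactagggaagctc
Kif11 (chr19:37376282-37376381, plus strand): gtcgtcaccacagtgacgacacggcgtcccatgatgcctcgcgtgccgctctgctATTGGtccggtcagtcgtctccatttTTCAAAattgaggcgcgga
Mybl2 (chr2:163054535-163054634, plus strand): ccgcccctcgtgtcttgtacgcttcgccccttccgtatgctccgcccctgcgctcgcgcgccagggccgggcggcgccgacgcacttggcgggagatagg
The Cdk1 promoter held a CHR form at -15 and another at -71, counted back from the annotated start, with an inverted CCAAT at -48 and at -80. Cdc20 had its CHR at -18 with CCAAT at -53 and -8, and Top2a had one at -23 behind 3 CCAAT boxes at -58, -78 and -98. Kif11 carried the same pair (CHR at -19, CCAAT at -45) although its RNA did not follow the other members, and Mybl2 carried neither in these 100 bases nor in its whole window. The other 7 members without either motif in their window were Birc5, Knstrn, Mad2l1, Melk, Ncaph, Nuf2 and Nusap1.

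Between 11193136 and 109807664 reads were counted on genes per kidney, and at the lowest total 1 CPM (1 count per 1000000 counts of the library, scaled by TMM) stood for about 11 counts. Of the 58 members, 55 passed the study's expression filter (a log2 CPM above 1 in 25% or more of all kidneys), and Ttk, Sgo1 and Cdc25c did not. In 19 of the 55, every wildtype kidney was under 2 CPM, so that they passed through the PKD groups where they were high. For this reason counts of calls are also given from a fit without the filter, which holds all 58. Pkd1 itself ranged from 53.1 to 86.4 CPM in wildtype, from 70.7 to 113 in PKD and from 67.4 to 120 in PKD + Salsalate. It was higher in PKD (log2 fold change 0.42, adjusted p = 0.00134), and because most exons remain after the deletion this count does not check the labels.

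Nearly the whole list was higher in PKD kidneys. By edgeR's quasi-likelihood test with Benjamini-Hochberg adjustment over 13961 genes, 51 of the 55 tested members were higher in PKD than in wildtype and 0 were lower, where 24.1% of all tested genes were higher and 25.0% were lower. Without the filter 54 of 58 members were higher, against 12.2% of 33588 genes. The median log2 fold change of the members was 1.93, beside -0.01 over all tested genes. Without the filter the medians were 2.00 for the 58 members and 0.0 over all genes. For 46 of the 55 tested members every PKD kidney lay above every wildtype kidney, which held for 5.21% of all tested genes, and the same was seen in 49 of all 58 members. The 46 include members that passed the filter through the PKD groups. No share without the filter is given for non-overlap, so these counts only describe the members. The 9 members whose groups overlapped were Ncapg, Bub1b, Kif11, Kif23, Spc25, Cdc25b, Mybl2, Smc2 and Smc4.

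**Figure D1:**
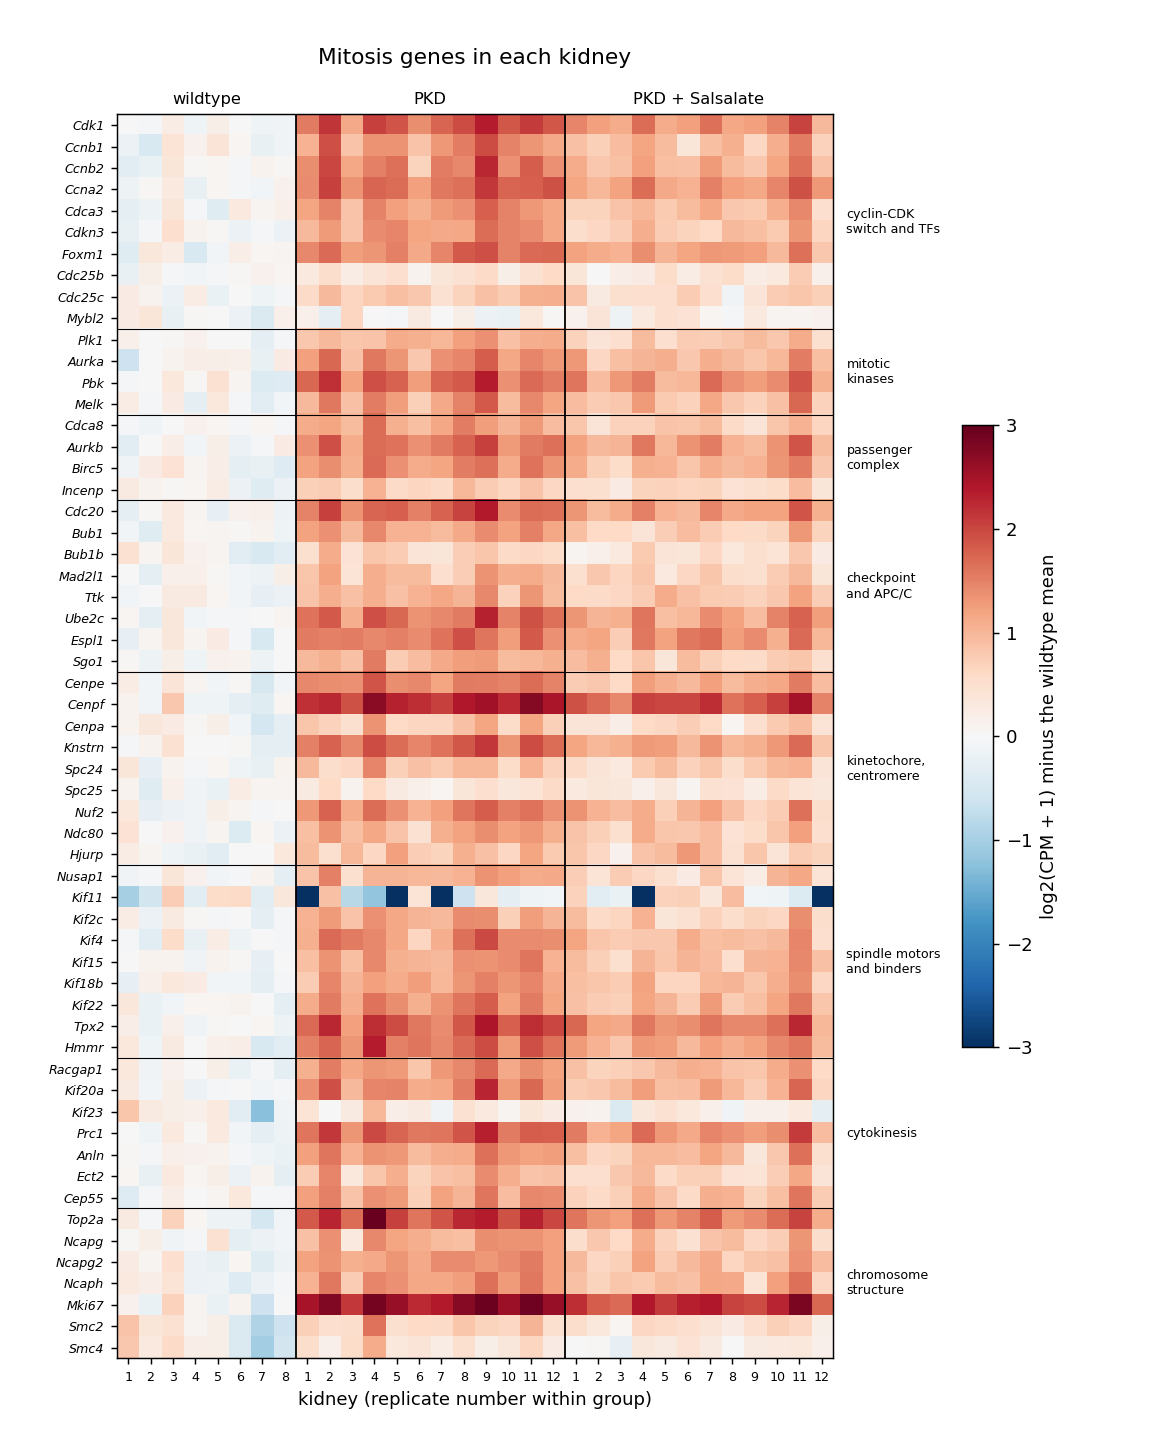
Each row is 1 of the 58 members and each column 1 kidney; colour gives log2(CPM + 1) minus the mean of the 8 wildtype kidneys, with the darkest colours for 3 or more above or below. Nearly all rows turn red across the 12 PKD kidneys and paler across the 12 PKD + Salsalate kidneys, while Mybl2, Kif23, Smc4 and Kif11 do not, and Kif11 is dark blue in 5 kidneys.

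After salsalate a smaller number of the members were called, all of them lower. Of the 55 tested members 14 fell in PKD + Salsalate against PKD and 0 rose, where 0.329% of all tested genes fell and 0.251% rose. Without the filter 9 of 58 members fell, against 0.250% of 33588 genes. The study names most of the 14 as affected by salsalate in the same kidneys. By qPCR it also found Cdc20 and Cdca8 lower. It reported fewer Ki67-positive nuclei after salsalate by staining, and no change of CDK1 protein. The list was chosen with earlier results of these data known, so the shares of called genes are no independent support for it. Among 41 other tested mitosis genes 0 were called. The log2 difference was below 0 in 53 of the 55, with a median of -0.46 beside -0.01 over all tested genes, and 47 members had an unadjusted p under 0.05 in this direction, against 5.30% of all tested genes. For 0 of the 58 members did every treated kidney lie below every untreated PKD kidney. The share of all tested genes for which this held is not given, so the count is no result about the members. All 14 that fell had risen in PKD, and all 14 were still higher than in wildtype.

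The 14 were Cdk1, Ccnb2, Cdca3, Cdkn3, Cdc20, Bub1, Cdca8, Cenpe, Knstrn, Nusap1, Hmmr, Racgap1, Top2a and Ncapg2. Of these, 6 were called in each of 32 fits that left out 1 kidney and in each of 7 other settings: Top2a, Cdc20, Cdca8, Cenpe, Knstrn and Bub1. The others lay near the threshold, and the count depended on single kidneys. Leaving out single PKD kidneys gave 6 (replicates 9 and 11), 7 (replicate 5), 8 (replicates 2, 4 and 7), 9 (replicate 8), 10 (replicate 1), 11 (replicates 10 and 12), 20 (replicate 6) or 21 (replicate 3). Leaving out single treated kidneys gave 6 (replicates 2, 5 and 12), 7 (replicates 3, 6 and 8), 8 (replicates 1 and 9), 10 (replicate 10), 11 (replicate 4), 14 (replicate 7) or 36 (replicate 11), and leaving out single wildtype kidneys gave from 10 to 18. The share of all tested genes called in these fits is not given. Whether the number of calls over all genes moved alike therefore cannot be told from these counts. PKD + Salsalate replicate 11 had the highest level of its group in 49 of the 58 members. It also had the highest summed leukocyte (596 CPM), fibroblast (1170 CPM), endothelial (258 CPM) and injured tubule (411 CPM) markers of its group. Its erythroid sum was the lowest (67.7 CPM). From the highest, its tubule sum ranked 11 of 12 and its liver sum 2 of 12. Among the PKD kidneys, replicate 9 was the highest in 30 members and replicate 4 in 13.

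**Figure D2:**
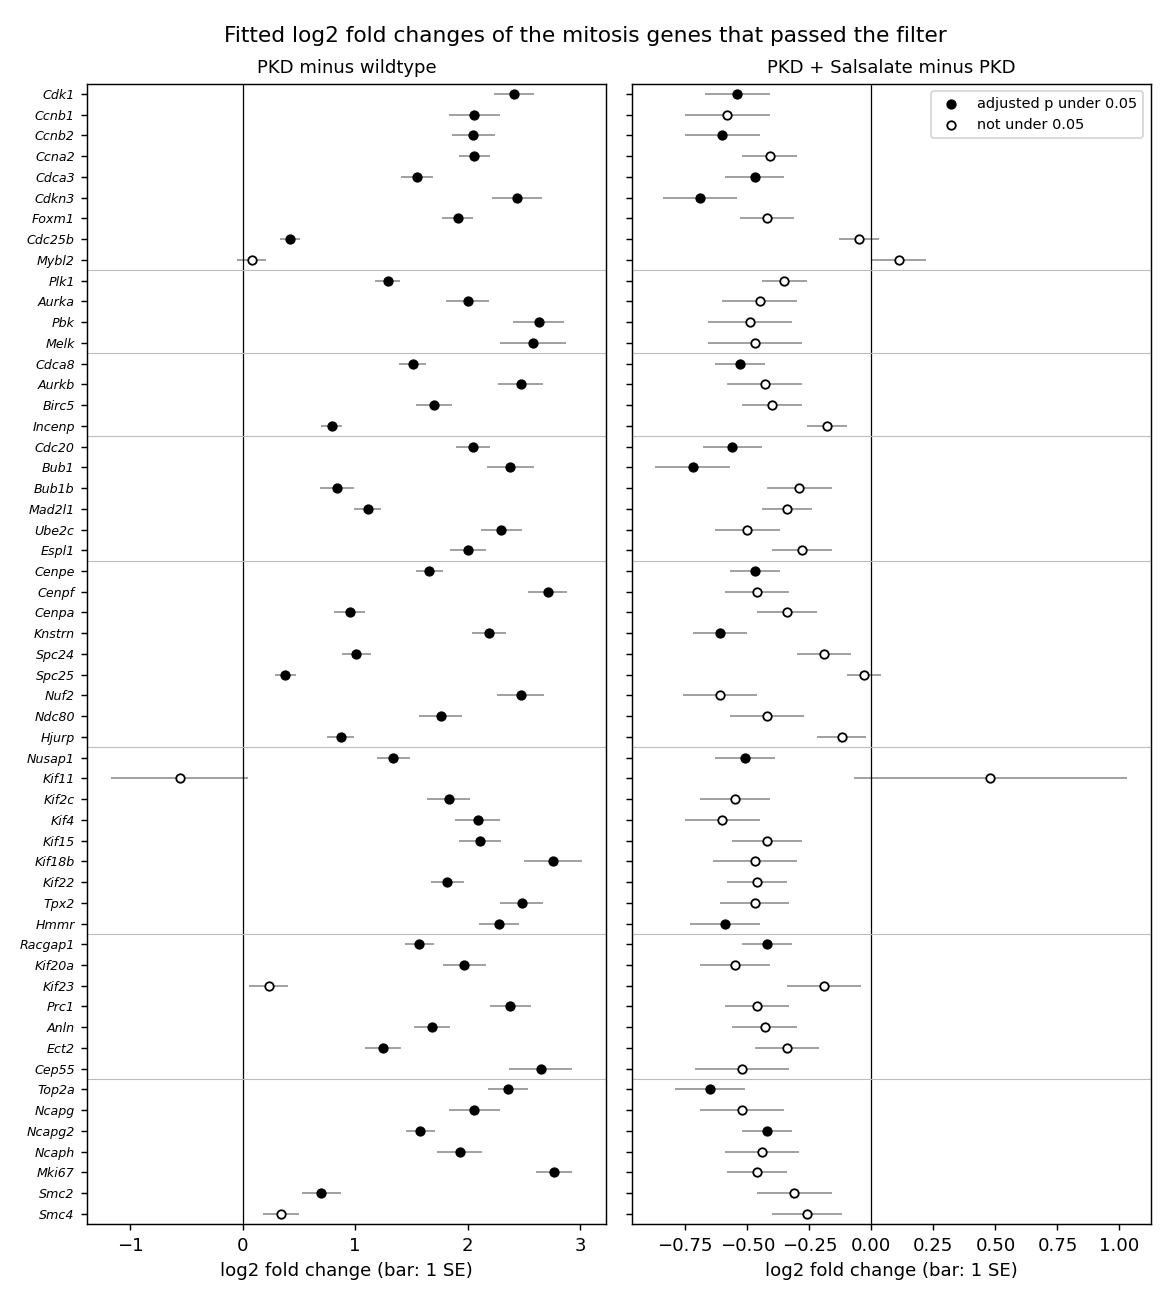
Points are log2 fold changes of the 55 tested members and bars 1 SE, for PKD minus wildtype (left) and PKD + Salsalate minus PKD (right); filled points had an adjusted p under 0.05. On the left 51 points are filled and lie right of 0, and on the right 14 are filled and 53 lie left of 0.

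The cyclin-CDK switch and its transcription factors make up 10 members, of which 9 were tested. Changes of single genes are given as log2 fold changes. In PKD 8 were higher, and 4 fell after salsalate. In wildtype kidneys Cdk1 ranged from 1.40 to 2.07 CPM with a median of 1.56, against 4.80 to 12.3 CPM with a median of 8.60 in PKD and 4.18 to 9.76 CPM with a median of 5.16 after salsalate. Cdk1, the kinase that drives entry into mitosis, was higher in every PKD kidney than in any wildtype kidney, with a log2 fold change of 2.41 ± 0.18 (SE, adjusted p = 9.17e-13), and the treated kidneys lay between the groups and overlapped with PKD, with a change of -0.54 ± 0.13 (SE, adjusted p = 0.0468). The median CPM of Ccnb2 was 1.71 in wildtype (range 1.14 to 2.41), 6.37 in PKD (range 3.23 to 11.8) and 4.05 in PKD + Salsalate (range 3.64 to 7.39). This cyclin, a partner of Cdk1, rose by 2.05 ± 0.19 (SE, adjusted p = 1.41e-10) and changed by -0.60 ± 0.15 (SE, adjusted p = 0.0474) with salsalate, and 11 of the 12 treated kidneys were below the PKD median.

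Cdkn3 lay between 0.284 and 1.12 CPM in the wildtype kidneys (median 0.444), between 1.68 and 3.79 CPM in PKD (median 2.49) and between 1.13 and 2.76 CPM in PKD + Salsalate (median 1.51). Cdkn3, a phosphatase that acts on cyclin-dependent kinases, had the largest rise of the group, 2.44 ± 0.22 (SE, adjusted p = 6.44e-11), and fell after salsalate by a log2 change of -0.69 ± 0.15 (SE, adjusted p = 0.0264). In wildtype kidneys Cdca3 ranged from 2.13 to 4.22 CPM with a median of 3.07, against 6.35 to 13.0 CPM with a median of 8.88 in PKD and 4.76 to 9.89 CPM with a median of 6.23 after salsalate. Cdca3, which helps to remove the Cdk1 inhibitor Wee1, rose by 1.55 ± 0.14 (SE, adjusted p = 1.17e-10) and was lower in treated kidneys, at -0.47 ± 0.12 (SE, adjusted p = 0.0486). Wildtype did not overlap with either PKD group for these 2 genes, while treated and untreated kidneys overlapped. Ccnb1 and Ccna2, the other mitotic cyclins of the list, rose by 2.06 and 2.06 in PKD, and their salsalate differences of -0.58 (adjusted p = 0.106) and -0.41 (adjusted p = 0.0805) missed the threshold. Foxm1, the transcription factor of late cell cycle genes, rose by 1.91, and its salsalate difference was -0.42 (adjusted p = 0.0716).

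Mybl2, the B-Myb factor that acts before Foxm1 on the same promoters, stayed apart from its group. Wildtype kidneys had a median of 5.98 CPM of Mybl2 (range 4.13 to 7.81), PKD kidneys one of 5.98 (range 4.58 to 9.84) and PKD + Salsalate kidneys one of 6.49 (range 5.14 to 8.82). The 3 groups overlapped throughout, and the log2 difference was 0.08 ± 0.13 (SE, adjusted p = 0.616) between PKD and wildtype and 0.11 ± 0.11 (SE, adjusted p = 0.819) between treated and untreated PKD. Cdc25b, a phosphatase that activates Cdk1, rose by 0.42, with a salsalate difference of -0.05 (adjusted p = 0.889). Its sister Cdc25c was under the filter, at a median of 0.204 CPM in wildtype, 1.13 in PKD and 0.757 in PKD + Salsalate.

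The 4 mitotic kinases outside the complexes, Plk1, Aurka, Pbk and Melk, were all higher in PKD, and 0 of the 4 passed the test after salsalate. Pbk lay between 0.381 and 1.52 CPM in the wildtype kidneys (median 0.859), between 3.24 and 8.37 CPM in PKD (median 5.13) and between 2.49 and 5.77 CPM in PKD + Salsalate (median 3.66). Pbk rose most, by 2.63 ± 0.23 (SE, adjusted p = 6.49e-11), and wildtype overlapped with neither PKD group. In wildtype kidneys Plk1 ranged from 1.97 to 3.03 CPM with a median of 2.67, against 5.38 to 8.44 CPM with a median of 6.42 in PKD and 3.78 to 6.87 CPM with a median of 5.16 after salsalate. Plk1, which acts at centrosomes, kinetochores and the midzone, rose least of the 4, by 1.29 ± 0.11 (SE, adjusted p = 5.22e-11), again without overlap with wildtype. Aurka, the kinase of the spindle poles, rose by 2.00 and Melk by 2.58. Their salsalate differences were -0.35 (adjusted p = 0.0712) for Plk1, -0.45 (adjusted p = 0.165) for Aurka, -0.49 (adjusted p = 0.202) for Pbk and -0.47 (adjusted p = 0.335) for Melk.

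The chromosomal passenger complex corrects wrong attachments and later guides cytokinesis. Its 4 genes, Aurkb, Birc5, Incenp and Cdca8, were all higher in PKD, with no overlap between PKD and wildtype kidneys. The median CPM of Cdca8 was 2.21 in wildtype (range 1.97 to 2.53), 6.11 in PKD (range 5.00 to 9.31) and 4.49 in PKD + Salsalate (range 3.21 to 5.64). Cdca8 (borealin) rose by 1.51 ± 0.12 (SE, adjusted p = 6.68e-12), all 12 treated kidneys lay below the PKD median, and its fall after salsalate, -0.53 ± 0.10 (SE, adjusted p = 0.00711), had together with Knstrn the smallest adjusted p of the members. Aurkb lay between 0.379 and 1.09 CPM in the wildtype kidneys (median 0.730), between 2.80 and 6.31 CPM in PKD (median 4.29) and between 2.38 and 5.45 CPM in PKD + Salsalate (median 2.81). The kinase Aurkb rose most, by 2.47 ± 0.20 (SE, adjusted p = 9.70e-12), and Birc5 (survivin) by 1.70, with salsalate differences of -0.43 (adjusted p = 0.185) and -0.40 (adjusted p = 0.124). In wildtype kidneys Incenp ranged from 7.55 to 12.2 CPM with a median of 10.4, against 14.7 to 21.6 CPM with a median of 16.6 in PKD and 12.0 to 19.8 CPM with a median of 14.8 after salsalate. The scaffold Incenp rose least, by 0.79 ± 0.09 (SE, adjusted p = 2.34e-08), and its salsalate difference was -0.18 (adjusted p = 0.376).

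The spindle checkpoint holds anaphase until every kinetochore is attached, and the APC/C and separase then release the chromosomes. All 6 tested members of this group rose in PKD, and 2 of them, Bub1 and Cdc20, fell after salsalate. Wildtype kidneys had a median of 0.510 CPM of Bub1 (range 0.127 to 0.776), PKD kidneys one of 2.31 (range 1.81 to 3.12) and PKD + Salsalate kidneys one of 1.32 (range 0.915 to 2.56). The checkpoint kinase Bub1 rose by 2.38 ± 0.21 (SE, adjusted p = 4.33e-11) and changed by -0.72 ± 0.15 (SE, adjusted p = 0.0154) with salsalate, the largest fall among the tested members. Cdc20 lay between 2.37 and 4.05 CPM in the wildtype kidneys (median 3.29), between 9.59 and 20.6 CPM in PKD (median 12.5) and between 6.99 and 14.3 CPM in PKD + Salsalate (median 8.31). Cdc20, the activator of the APC/C that the checkpoint holds back, rose by 2.05 ± 0.15 (SE, adjusted p = 1.24e-12) and fell by a log2 change of -0.56 ± 0.12 (SE, adjusted p = 0.0194). For both genes the wildtype kidneys stood below all others, and PKD + Salsalate replicate 11 was the highest treated kidney, at 2.56 CPM for Bub1 and 14.3 CPM for Cdc20.

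In wildtype kidneys Bub1b ranged from 1.65 to 3.98 CPM with a median of 2.83, against 3.67 to 6.82 CPM with a median of 4.51 in PKD and 2.86 to 5.35 CPM with a median of 3.68 after salsalate. The related Bub1b had the smallest rise of this group, 0.84 ± 0.15 (SE, adjusted p = 3.64e-05), and its PKD and wildtype kidneys overlapped. Ube2c, the ubiquitin-conjugating enzyme of the APC/C, rose by 2.30, Espl1 (separase) by 2.00 and Mad2l1, which blocks Cdc20, by 1.11. Their salsalate differences were -0.50 (adjusted p = 0.0712), -0.28 (adjusted p = 0.351) and -0.34 (adjusted p = 0.119). The checkpoint kinase Ttk and Sgo1, the protector of centromeric cohesin, were under the filter, with medians of 0.222 and 0.269 CPM in wildtype, 1.59 and 1.57 in PKD, and 1.13 and 1.10 in PKD + Salsalate. For both, every PKD kidney still lay above every wildtype kidney.

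All 9 kinetochore and centromere genes were higher in PKD, and 2 fell after salsalate. The median CPM of Cenpf was 2.36 in wildtype (range 1.78 to 5.26), 16.6 in PKD (range 12.6 to 23.4) and 13.0 in PKD + Salsalate (range 8.83 to 19.3). Cenpf, a large protein of the outer kinetochore, rose most, by 2.71 ± 0.17 (SE, adjusted p = 4.84e-14), and its salsalate difference was -0.46 (adjusted p = 0.0811). Knstrn lay between 1.33 and 2.84 CPM in the wildtype kidneys (median 1.80), between 6.07 and 11.2 CPM in PKD (median 7.99) and between 4.00 and 8.14 CPM in PKD + Salsalate (median 5.16). Knstrn, which links kinetochores to spindle microtubules, rose by 2.19 ± 0.15 (SE, adjusted p = 1.56e-13) and fell after salsalate by a log2 change of -0.61 ± 0.11 (SE, adjusted p = 0.00711). In wildtype kidneys Cenpe ranged from 3.30 to 6.81 CPM with a median of 4.86, against 12.6 to 21.2 CPM with a median of 15.5 in PKD and 8.00 to 16.5 CPM with a median of 11.1 after salsalate. The kinetochore motor Cenpe rose by 1.66 ± 0.12 (SE, adjusted p = 1.19e-12) and changed by -0.47 ± 0.10 (SE, adjusted p = 0.0159) with salsalate. Wildtype overlapped with neither PKD group for these 3 genes, while treated and untreated kidneys overlapped.

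The 4 subunits of the Ndc80 complex, which grips the microtubule end, had log2 fold changes from 0.38 to 2.47 in PKD, and the differences between them were not tested. Nuf2 rose by 2.47, Ndc80 by 1.76, Spc24 by 1.01 and Spc25 by 0.38, with salsalate differences of -0.61 (adjusted p = 0.0517), -0.42 (adjusted p = 0.222), -0.19 (adjusted p = 0.641) and -0.03 (adjusted p = 0.949). Wildtype kidneys had a median of 13.1 CPM of Spc25 (range 9.20 to 14.3), PKD kidneys one of 15.9 (range 12.8 to 19.1) and PKD + Salsalate kidneys one of 15.8 (range 12.9 to 18.8). Spc25 had the smallest rise of the group, 0.38 ± 0.09 (SE, adjusted p = 0.00042), and its PKD and wildtype kidneys overlapped. In the annotation 3693 bp of its exons lie opposite to exons of Nostrin, on the other strand. The centromeric histone Cenpa rose by 0.95 and its chaperone Hjurp by 0.87, with salsalate differences of -0.34 (adjusted p = 0.229) and -0.12 (adjusted p = 0.787). Hjurp shares 2577 bp with exons of Mroh2a and Trpm8 on the other strand. Such an overlap was annotated for 32 members, and the longest were, in order, those of Spc25, Kif20a (3086 bp), Hjurp and Ncapg (2118 bp). Kif20a and Ncapg rose by 1.97 and 2.06 in PKD. The part of such overlaps in the changes was not tested.

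Of the 9 spindle motors and microtubule binders, 8 were higher in PKD, and Nusap1 and Hmmr fell after salsalate. Kif18b lay between 0.0635 and 0.603 CPM in the wildtype kidneys (median 0.241), between 1.20 and 2.69 CPM in PKD (median 2.06) and between 0.986 and 2.40 CPM in PKD + Salsalate (median 1.35). Kif18b, a motor that shortens microtubules, rose most, by 2.76 ± 0.26 (SE, adjusted p = 1.43e-10), from under 1 CPM in every wildtype kidney. In wildtype kidneys Hmmr ranged from 0.698 to 1.89 CPM with a median of 1.47, against 4.65 to 11.0 CPM with a median of 6.15 in PKD and 3.11 to 5.97 CPM with a median of 4.41 after salsalate. Hmmr, a spindle binder and hyaluronan receptor, rose by 2.28 ± 0.18 (SE, adjusted p = 4.53e-12), and all 12 treated kidneys lay below the PKD median, with a salsalate change of -0.59 ± 0.14 (SE, adjusted p = 0.0301). The median CPM of Nusap1 was 2.60 in wildtype (range 2.07 to 3.79), 6.64 in PKD (range 4.17 to 9.62) and 4.47 in PKD + Salsalate (range 3.35 to 7.39). Nusap1, which bundles microtubules around chromosomes, rose by 1.34 ± 0.15 (SE, adjusted p = 1.07e-08) and fell by a log2 change of -0.51 ± 0.12 (SE, adjusted p = 0.0474), with treated kidneys overlapping with both other groups.

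Tpx2, which seeds microtubules and activates Aurka, rose by 2.48. The motors Kif15, Kif4, Kif2c and Kif22 rose by 2.11, 2.09, 1.83 and 1.82 in PKD. Of these, Kif2c and Kif4 came close to the threshold after salsalate, at -0.55 (adjusted p = 0.0571) and -0.60 (adjusted p = 0.0573), and Tpx2, Kif15 and Kif22 had differences of -0.47 (adjusted p = 0.115), -0.42 (adjusted p = 0.164) and -0.46 (adjusted p = 0.0689).

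Kif11, the motor that pushes the spindle poles apart, took values in 2 separate ranges. In 27 of the 32 kidneys it lay between 77.3 and 335 CPM, wildtype included. In the other 5 it lay far below, at 5.04, 5.03 and 3.90 CPM in PKD replicates 1, 5 and 7 and at 4.74 and 3.42 CPM in PKD + Salsalate replicates 4 and 12, which stood for 159, 211, 67, 88 and 59 counts. The 8 wildtype kidneys ranged from 87.0 to 296 CPM (median 181). Per kilobase of exon their mean was 21.3 CPM, beside a median of 0.352 over all members in wildtype, so the higher range is itself unusual for this list. With this spread the log2 difference was -0.56 ± 0.61 (SE, adjusted p = 0.462) between PKD and wildtype and 0.48 ± 0.55 (SE, adjusted p = 0.85) between treated and untreated PKD. Of the 5 tested genes within 300000 bp of Kif11 (chr19:37364799-37410307, plus strand, GRCm39), Ide, an insulin-degrading protease, was chosen for description after its values were seen. Ide starts 24069 bp away on the other strand (chr19:37245688-37340729). It was at 52.3, 59.6 and 56.5 CPM in the same 3 PKD kidneys, the lowest of that group, whose other kidneys lay between 65.2 and 93.1 CPM. In PKD + Salsalate replicates 4 and 12 it was at 60.3 and 69.4 CPM, with the others from 69.3 to 85.7 CPM, and wildtype from 82.8 to 101 CPM. The cause of the low values was not tested.

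**Figure D3:**
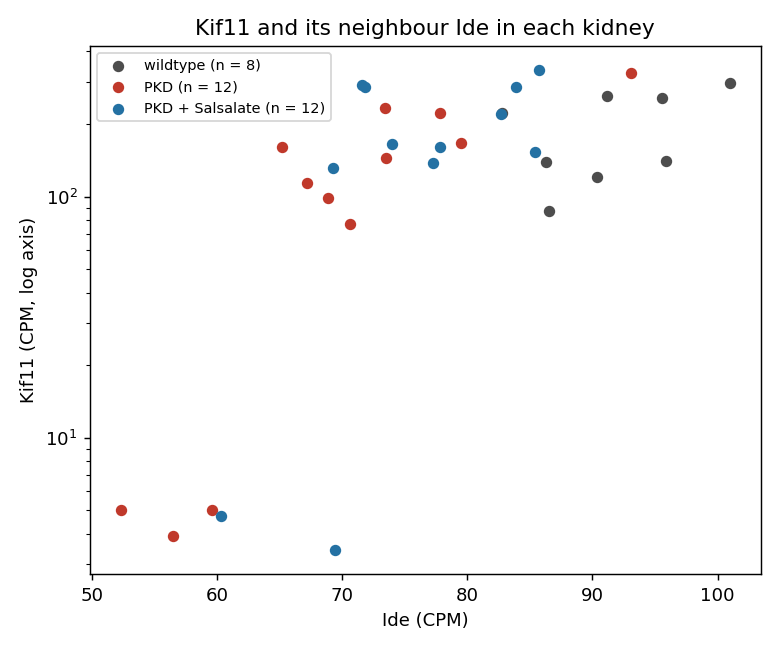
Each point is 1 kidney, with the CPM of Ide on the horizontal axis and the CPM of Kif11 on a log vertical axis, coloured by group. The 5 kidneys with Kif11 between 3.42 and 5.04 CPM stand apart from the other 27, which lie at 77.3 CPM or more.

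Cytokinesis is the split of the cell after the chromosomes have parted. Of its 7 members 6 were higher in PKD, and Racgap1 fell after salsalate. Cep55 lay between 0 and 0.636 CPM in the wildtype kidneys (median 0.276), between 1.15 and 3.02 CPM in PKD (median 2.13) and between 0.956 and 2.98 CPM in PKD + Salsalate (median 1.29). Cep55, which recruits the abscission machinery to the midbody, rose most, by 2.65 ± 0.28 (SE, adjusted p = 2.56e-09), and its salsalate difference was -0.52 (adjusted p = 0.24). In wildtype kidneys Racgap1 ranged from 2.25 to 3.98 CPM with a median of 2.95, against 6.15 to 11.9 CPM with a median of 8.71 in PKD and 5.05 to 9.24 CPM with a median of 6.22 after salsalate. Racgap1, a subunit of centralspindlin, rose by 1.57 ± 0.13 (SE, adjusted p = 7.14e-12) without overlap with wildtype and changed by -0.42 ± 0.10 (SE, adjusted p = 0.045) with salsalate. Prc1, the bundler of the midzone, rose by 2.38, the midzone motor Kif20a by 1.97, the contractile ring scaffold Anln by 1.68 and the RhoA activator Ect2 by 1.25. Their salsalate differences were -0.46 (adjusted p = 0.0933), -0.55 (adjusted p = 0.0657), -0.43 (adjusted p = 0.106) and -0.34 (adjusted p = 0.28).

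Wildtype kidneys had a median of 18.3 CPM of Kif23 (range 6.22 to 29.9), PKD kidneys one of 19.9 (range 15.0 to 33.3) and PKD + Salsalate kidneys one of 18.3 (range 11.8 to 22.9). This motor is the partner of Racgap1 in centralspindlin, yet its groups overlapped throughout, with a log2 difference of 0.23 ± 0.17 (SE, adjusted p = 0.252) between PKD and wildtype and -0.19 ± 0.15 (SE, adjusted p = 0.748) between treated and untreated PKD. The difference between the 2 partners was not tested.

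Chromosome structure and the proliferation marker Ki-67 close the list with 7 members, 6 of them higher in PKD. Mki67 lay between 3.81 and 11.0 CPM in the wildtype kidneys (median 6.63), between 31.4 and 55.4 CPM in PKD (median 44.2) and between 23.1 and 51.4 CPM in PKD + Salsalate (median 31.9). Mki67, which coats mitotic chromosomes, had the largest rise of all tested members, 2.77 ± 0.16 (SE, adjusted p = 1.69e-14), and every PKD kidney, treated or not, lay above the highest wildtype kidney at 11.0 CPM. Its salsalate difference of -0.46 ± 0.12 (SE, adjusted p = 0.0771) missed the threshold, with 11 of the 12 treated kidneys below the PKD median, and the adjusted p ran from 0.0113 to 0.141 over the other settings. In wildtype kidneys Top2a ranged from 2.48 to 7.07 CPM with a median of 3.77, against 14.3 to 38.3 CPM with a median of 19.4 in PKD and 9.92 to 19.5 CPM with a median of 12.8 after salsalate. Top2a, the topoisomerase that untangles sister chromatids, rose by 2.36 ± 0.18 (SE, adjusted p = 1.89e-12) and fell after salsalate by a log2 change of -0.65 ± 0.14 (SE, adjusted p = 0.0174). PKD replicate 4 was far above the other PKD kidneys, at 38.3 against at most 24.6 CPM, and without it Top2a was still called.

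**Figure D4:**
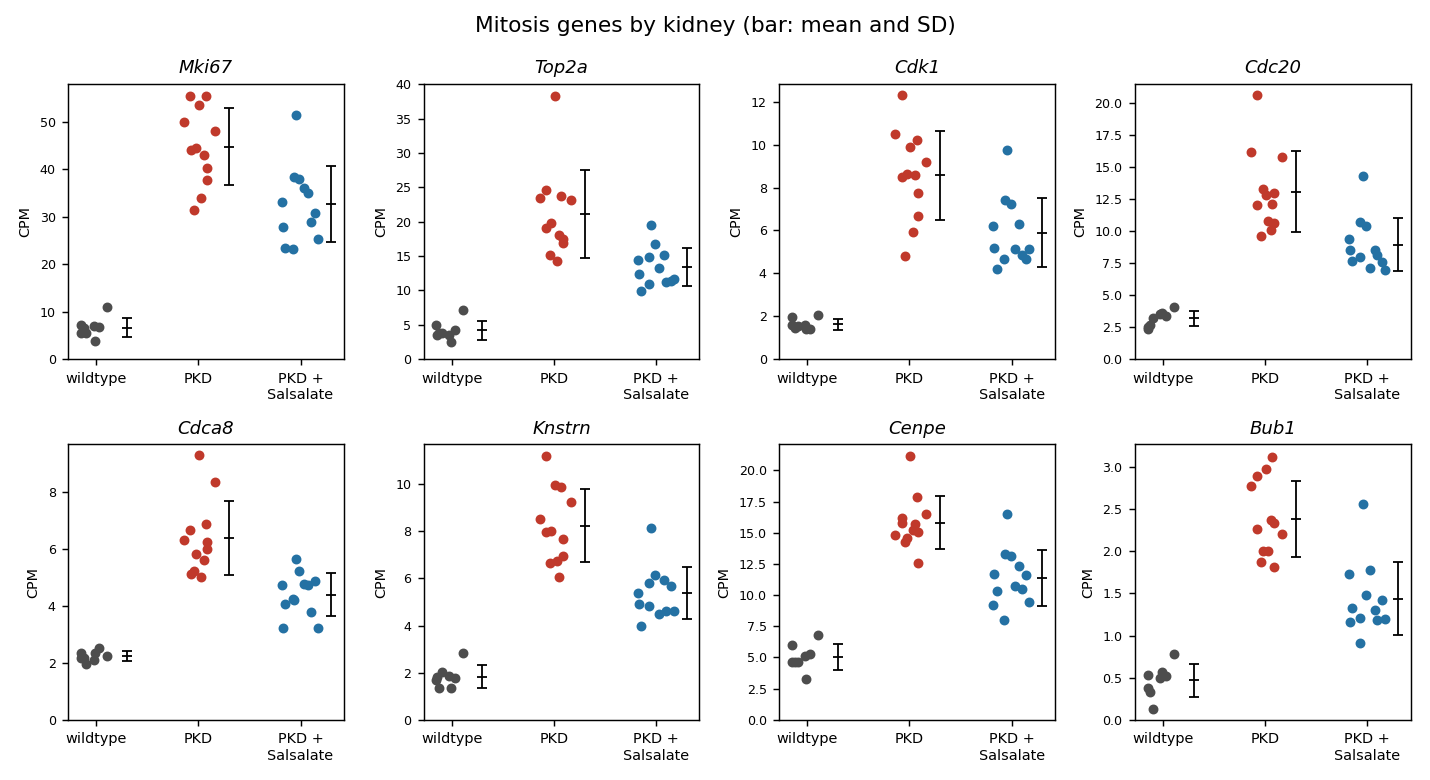
Each point is the CPM of 1 kidney and the bar gives the mean and SD of its group, for Mki67, Cdk1 and the 6 members called lower after salsalate in every setting (Top2a, Cdc20, Cdca8, Knstrn, Cenpe and Bub1). The wildtype kidneys lie below all others in each panel, and the PKD + Salsalate kidneys lie lower than most PKD kidneys and overlap with them.

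The condensins compact the chromosomes. The median CPM of Ncapg2 was 2.51 in wildtype (range 1.84 to 4.14), 7.99 in PKD (range 6.60 to 9.70) and 5.76 in PKD + Salsalate (range 4.59 to 8.33). Ncapg2, a subunit of condensin II, rose by 1.58 ± 0.13 (SE, adjusted p = 8.35e-12) and changed by -0.42 ± 0.10 (SE, adjusted p = 0.0474) with salsalate. The condensin I subunits Ncapg and Ncaph rose by 2.06 and 1.93, with salsalate differences of -0.52 (adjusted p = 0.176) and -0.44 (adjusted p = 0.213). Smc4 lay between 42.3 and 155 CPM in the wildtype kidneys (median 101), between 98.1 and 191 CPM in PKD (median 114) and between 75.0 and 119 CPM in PKD + Salsalate (median 107). The core ATPase Smc4, which both condensins share with Smc2, had overlapping groups and a log2 difference of 0.34 ± 0.16 (SE, adjusted p = 0.0686) between PKD and wildtype, with -0.26 (adjusted p = 0.545) after salsalate. Smc2 rose by 0.70 ± 0.17 (SE, adjusted p = 0.00127), also with overlap, and its salsalate difference was -0.31 (adjusted p = 0.461).

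The wildtype libraries fell into 2 sets for some of these genes. The names of 5 of the 8 wildtype libraries (replicates 1 to 5) end in R, an ending that is not explained in the sources used here. Smc4 was between 100 and 155 CPM in these 5 and between 42.3 and 65.0 CPM in the other 3. Smc2 showed the same order, at 15.7 to 27.6 against 7.55 to 10.8 CPM, and so did Kif23, at 18.1 to 29.9 against 6.22 to 15.2 CPM. Bub1b (2.81 to 3.98 against 1.65 to 1.91 CPM) and Cenpa (4.91 to 6.28 against 2.98 to 4.4 CPM) also did. Incenp was at 10.3 to 12.2 against 7.55 to 8.71 CPM. Birc5, Anln and the untested Ttk had this order without overlap too. In the remaining members the 2 sets overlapped. The share of alignments on no gene was 13.2% to 15.7% in the 5, 7.60% to 9.77% in the 3 and 7.65% to 16.4% in the PKD groups. PKD replicate 4 had the highest share, 16.4%. Among PKD kidneys it also had the highest Smc4 (191 CPM), Smc2 (47.8 CPM), Kif23 (33.3 CPM) and Top2a (38.3 CPM). The part of this share in these values was not tested. With only the 5 libraries as wildtype, 51 members were higher in PKD (median log2 fold change 1.75), and with only the 3 others, 52 (median 2.03), 50 of them among the 51. Over all tested genes, 4278 of 13923 were higher in PKD with the 5 and 2900 of 13883 with the 3. With the 3, Kif23 (log2 fold change 0.81, adjusted p = 0.00236) and Smc4 (1.11, adjusted p = 4.10e-06) were called and Spc25 (0.24, adjusted p = 0.0721) was not. In PKD + Salsalate against the 3, 51 members were called, 48 of them among the 50. Kif23 (0.63, adjusted p = 0.0174), Smc2 (1.15, adjusted p = 3.63e-05) and Smc4 (0.85, adjusted p = 0.000134) were then called, and Spc25 (0.22, adjusted p = 0.113) and Cdc25b (0.30, adjusted p = 0.0549) were not. Against the 5, 49 were called, and Bub1b (0.26, adjusted p = 0.148) was not. Over all tested genes, 4129 of 13923 were higher in PKD + Salsalate against the 5 and 2547 of 13883 against the 3.

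**Figure D5:**
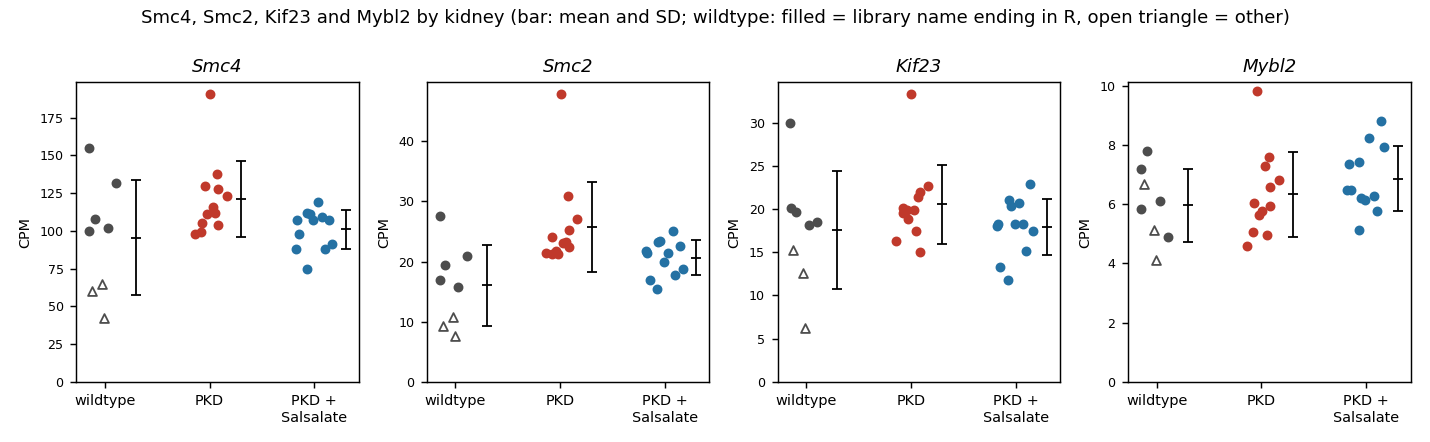
Each point is the CPM of 1 kidney for Smc4, Smc2, Kif23 and Mybl2, with bars for group mean and SD; open triangles are the 3 wildtype libraries whose names do not end in R. For Smc4, Smc2 and Kif23 the triangles lie below the filled wildtype points, and for Mybl2 the 3 groups overlap.

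The members also differed in level. Per kilobase of annotated exon, the mean in wildtype kidneys was 21.3 CPM for Kif11, 14.8 for Smc4, 4.60 for Hjurp, 2.83 for Smc2 and 2.21 for Kif23, and the other 53 members were at or under 2, with a median over all members of 0.352. The 4 tested members that were not called in PKD thus included 3 of the 5 with the highest wildtype level per kilobase, Kif11, Smc4 and Kif23, beside Mybl2 at 1.06. In PKD kidneys the median over the members was 1.15 and in PKD + Salsalate 0.843 CPM per kilobase.

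Against wildtype, the treated kidneys kept most of the rise. In PKD + Salsalate 50 of 55 tested members were higher than in wildtype and 0 were lower, where 21.8% of all tested genes were higher and 23.2% were lower; without the filter 53 of 58 members were higher, against 10.5% of 33588 genes. The median log2 fold change of the members was 1.45, beside 1.93 for untreated PKD, from fits that share the wildtype kidneys. In 40 of the 55 tested members every treated kidney lay above every wildtype kidney, against 4.46% of all tested genes, and in 42 of all 58 members. Here too no share without the filter is given, and these counts only describe the members. The 5 members not called were Kif11, Kif23, Mybl2, Smc2 and Smc4, at log2 differences of -0.07 (adjusted p = 0.932), 0.04 (adjusted p = 0.852), 0.20 (adjusted p = 0.217), 0.39 (adjusted p = 0.0687) and 0.08 (adjusted p = 0.703). Mki67 remained highest, at 2.31 ± 0.16 (SE, adjusted p = 7.27e-13), followed by Kif18b at 2.29 ± 0.26 (SE, adjusted p = 1.51e-08) and Cenpf at 2.26 ± 0.17 (SE, adjusted p = 3.28e-12).

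Across the kidneys of 1 group, Mki67 followed other genes to a different degree. For 8 relations, 4 genes in each PKD group of 12 kidneys, correlations of log2 CPM were tested by 100000 permutations, 2-sided, with Benjamini-Hochberg adjustment over the 8. Mki67 followed Top2a in PKD (Pearson r = 0.85, p = 0.00014, adjusted p = 0.00056 by permutation, Spearman rho = 0.97, p = 1.00e-05, the smallest these permutations can give) and in PKD + Salsalate (r = 0.93, p = 2.00e-05, adjusted p = 0.00016, rho = 0.89, p = 0.00033). Without the 2 kidneys farthest from the Mki67 median, r was 0.79 and 0.87. Havcr1 (Kim-1), a marker of injured proximal tubule cells, followed Mki67 in PKD (r = 0.77, p = 0.0034, adjusted p = 0.00544 by permutation, rho = 0.71, p = 0.0118) and in PKD + Salsalate (r = 0.87, p = 0.00038, adjusted p = 0.00101, rho = 0.83, p = 0.00152). Without the 2 farthest kidneys r was 0.49 in PKD (replicates 3 and 6 left out, adjusted permutation p = 0.247) and 0.84 in PKD + Salsalate (adjusted permutation p = 0.00755). Leaving these kidneys out narrows the range of Mki67 and leaves 10 per group. It therefore cannot show whether a relation depends on them.

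The leukocyte gene Ptprc (CD45) gave r = 0.14 in PKD (permutation p = 0.665, adjusted p = 0.665, rho = 0.12, p = 0.716) and r = 0.79 in PKD + Salsalate (permutation p = 0.00294, adjusted p = 0.00544, rho = 0.71, p = 0.0129). The latter was 0.54 (adjusted permutation p = 0.221) without replicates 3 and 11, the farthest from the Mki67 median, with the same limit. Cdh16, the Ksp-cadherin gene of tubule cells, gave r = 0.16 in PKD (permutation p = 0.617, adjusted p = 0.665, rho = -0.01, p = 0.975) and r = -0.46 in PKD + Salsalate (permutation p = 0.138, adjusted p = 0.184, rho = -0.56, p = 0.0625), and without the 2 farthest kidneys -0.11 and -0.35. The labels name no batch within the PKD groups.

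Other lists of cell cycle genes are given beside the members, and no difference between lists was tested. Over all tested genes 24.1% were higher and 25.0% lower in PKD. Among 50 other mitosis genes 41 were tested, 31 were higher and 1 was lower in PKD (median log2 fold change 1.22), and 0 were called after salsalate (median -0.27). Aspm, a spindle pole protein, rose most, by 2.63 ± 0.19 (SE, adjusted p = 9.17e-13), and Kif20b had the smallest value, -0.39 ± 0.19 (adjusted p = 0.0835). A list of 15 APC/C genes held core subunits and the activator Fzr1, which are needed in resting cells as well. Of these 15, 2 were higher and 5 were lower in PKD (median -0.06). Cdc27 rose by 0.22 (adjusted p = 0.00932) and Anapc13 fell by a log2 change of -0.56 (adjusted p = 0.00185). Among 10 cohesin genes 2 were higher and 2 lower (median 0.05), from Smc1a at 0.24 (adjusted p = 1.31e-05) to Stag2 at -0.42 (adjusted p = 0.000498). For these 2 lists 0 genes were called after salsalate. The PKD counts of both lists, and of the MuvB list, are near the shares over all genes and are no result about the lists.

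The MuvB core with its E2F and DP partners, the complex that holds or opens CHR promoters, had 3 of 9 genes higher and 3 lower (median -0.09), from Tfdp1 at 0.44 (adjusted p = 1.06e-06) to E2f5 at -0.33 (adjusted p = 0.000288). Of 17 cell cycle brakes 16 were tested, 9 were higher and 2 lower (median 0.39). Cdkn1a, the p21 inhibitor of cyclin-dependent kinases, rose most, by 1.84 ± 0.15 (SE, adjusted p = 1.60e-11), with medians of 7.23 CPM in wildtype, 23.9 in PKD and 23.6 in PKD + Salsalate. Its salsalate difference was -0.04 (adjusted p = 0.961), and Gadd45g had the smallest PKD value, -0.44 (adjusted p = 0.0758). Wee1, the kinase that restrains Cdk1, was the 1 gene of these lists called after salsalate, at -0.37 ± 0.09 (SE, adjusted p = 0.0495), next to the threshold and not called with DESeq2 size factors, without the filter or with the replicate number as a term, with medians of 16.1, 16.8 and 13.3 CPM in wildtype, PKD and PKD + Salsalate. The 8 G1 cyclins and kinases had 6 higher and 0 lower in PKD (median 0.44), from Ccne2 at 1.30 (adjusted p = 4.07e-07) to Ccnd2 at -0.28 (adjusted p = 0.134), and 0 were called after salsalate.

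Markers of leukocytes, fibroblasts and injured tubule were mostly higher in PKD, and erythroid markers were lower. Over all tested genes 24.1% were higher and 25.0% were lower. The tubule count is near these shares and the endothelial list is small, so these 2 counts are no result about those cells. Of 16 leukocyte markers 11 were tested, 10 were higher and 1 lower, and their summed level ran from 156 to 256 CPM in wildtype, from 360 to 537 in PKD and from 313 to 596 in PKD + Salsalate, with the neutrophil gene Ly6g at 0 in most kidneys. All 5 fibroblast markers were higher in PKD (summed 237 to 332, 529 to 942 and 513 to 1170 CPM in wildtype, PKD and PKD + Salsalate), as were all 4 injured tubule markers (88.1 to 145, 237 to 350 and 174 to 411 CPM). Of 8 tubule markers 1 was higher and 2 were lower (summed 9549 to 16974, 10368 to 14118 and 10308 to 13280 CPM). Endothelial markers, 2 of 4 higher and 1 lower, summed to 196 to 295, 199 to 261 and 212 to 258 CPM, and 3 tested erythroid markers of 4 were lower in PKD (228 to 745, 42.7 to 158 and 67.7 to 294 CPM). Of 7 liver markers 3 of 6 tested were higher, namely Alb, Apoa2 and Fga, and PKD replicate 10 summed to 3102 CPM against at most 200 CPM in any wildtype kidney. Without PKD replicate 10, an alternative chosen after seeing the data, Fga was still higher (log2 fold change 1.09, adjusted p = 0.0016 by edgeR's test) and 4 of the 6 were lower, Alb and Apoa2 among them. After salsalate 0 markers of leukocytes, fibroblasts, endothelium, erythroid cells, tubule or injured tubule were called, and 1 of the liver list (Alb) was lower, against 0 without PKD replicate 10. Which of these cells carried the mitosis transcripts was not tested.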

How the data were processed

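The authors demultiplexed the reads with bcl2fastq 2.20, checked them with FastQC, trimmed them with cutadapt 2.10, mapped them to GRCm39 by means of STAR 2.7.5a and used HTSeq 0.12.4, strand-aware, for counting on Ensembl genes, and they deposited raw counts per gene and kidney. Groups and replicate numbers came from the sample labels. The analysis ran in edgeR 4.0.16 (R 4.3.3). A gene was tested if its log2 CPM exceeded 1 in 25% or more of the 32 kidneys (13961 of 53700), libraries were scaled by TMM (trimmed mean of M-values), 1 model without covariates held the 3 groups, and contrasts were tested 2-sided by the quasi-likelihood test with Benjamini-Hochberg adjustment over all tested genes at 0.05. CPM are TMM-scaled, and an SE is the log2 fold change over the square root of the F statistic. Correlations used log2 CPM with a prior count of 2 (SciPy 1.17.1). The method was also run on simulated counts in which only the PKD + Salsalate group held changed genes. Its outcome is not given here, and it does not check a case with many changes between PKD and wildtype. Gene positions, exon lengths and overlaps came from GENCODE mouse release M39 (GRCm39), and promoter windows from RefSeq on GRCm38.p6. Members and lists were chosen with earlier results of these data known. Named genes followed 1 rule: every member by role group, with levels for those called after salsalate, Mki67 and the largest and smallest PKD change of each group, and of the lists the extremes in PKD and genes called after salsalate. Alternatives were DESeq2 1.42.0 size factors and its Wald test, library totals without TMM, no filter, filterByExpr, 2-group fits, a replicate block, each kidney left out, and the 5 or the 3 wildtype libraries alone, and, for the liver markers, PKD replicate 10 left out. The 5 summary lines of uncounted alignments were left out of library sizes (16.9% to 26.4% of alignments).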

Additional observations from a re-analysis of the deposited data

Results flagged for a closer look

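Among the 58 members, 5 values in the 8 wildtype kidneys stood far from the rest by Dixon's test at its 95% level, a rule that marks about 1 in 20 such groups by chance. In wildtype replicate 3, Mki67 was at 11.0 CPM against 3.81 to 7.10 CPM in the other 7 kidneys, Cenpf at 5.26 against 1.78 to 2.84 CPM, Knstrn at 2.84 against 1.33 to 2.03 CPM and Cdkn3 at 1.12 against 0.284 to 0.595 CPM. This kidney was the highest of the wildtype group in 28 of the 58 members. In wildtype replicate 7, Plk1 was at 1.97 CPM against 2.54 to 3.03 CPM in the others, and this kidney was the lowest of the group in 24 members. Groups of 12 were not examined by this rule.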

How the results depend on the processing

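In both comparisons with wildtype the number of members called stayed within 1.5 times its value under every setting run. For PKD + Salsalate against PKD it was 14, and 8 with library totals without TMM, 9 without a filter and 25 by DESeq2's Wald test, all lower, and from 6 to 36 with 1 kidney left out. No counts over all genes are given for the fits with 1 kidney left out. The replicate numbers did not pair the kidneys (correlations of deviations from -0.401 to 0.406 over 12 pairs, 2 of them over 0.1), and with the replicate block 8 members were called, 7 of the 14 among them. Over all tested genes the salsalate calls were 46 lower and 35 higher, against 49 and 30 without TMM and 84 and 36 without a filter. They were 24 and 24 with the block, 101 and 98 by the Wald test and 106 and 89 with only the 2 groups fitted. Without TMM the median of all genes in PKD against wildtype moved from -0.009 to 0.097 (log2), and 70.1% rather than 49.1% of the calls were higher. Members near 0 changed sign. With only the 5 wildtype libraries ending in R, Kif23 was at -0.05 and Mybl2 at -0.02 in PKD, and Kif23 at -0.24, Smc4 at -0.24 and Kif11 at 0.01 in PKD + Salsalate. Kif11 was at 0.02 there without TMM. With 1 kidney left out, the values of PKD + Salsalate against wildtype ran from -0.19 to 0.05 for Kif11, from -0.08 to 0.19 for Kif23 and from -0.03 to 0.21 for Smc4. Without the 2 kidneys farthest from the Mki67 median, r with Havcr1 in PKD was 0.49 and with Ptprc in PKD + Salsalate 0.54, both no longer past the threshold, and with Cdh16 in PKD it was -0.11. Without PKD replicate 10, an alternative chosen after seeing the data, the liver markers Alb and Apoa2 went from 4.65 and 1.71 to -1.28 and -0.60 in PKD against wildtype. The cause of these shifts was not tested. At the lowest depth, members under 1 CPM rest on about 11 counts or fewer.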
